A study of Mus musculus with 4 samples.

Results

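The BMP and GDF ligand genes of skeletal tissue were followed in rib chondrocytes that had lost Eed. The set held Bmp2, Bmp3, Bmp4, Bmp5, Bmp6, Bmp7, Gdf5, Gdf6 and Gdf10, which were 9 of the 22305 genes on the arrays. They were chosen by symbol, with earlier results of these data known, and each had a single probe set. The data were 4 Affymetrix Mouse Gene ST 1.0 arrays, of which 2 held Eed cKO cells and 2 held wild-type (Wt) cells. Eed cKO cells came from pups in which Col2-Cre, a Cre recombinase under a Col2a1 promoter, had cut a floxed Eed gene. Wt cells came from pups labelled wild-type, and the sources used here do not say whether these carried floxed alleles or the Cre transgene. The pups of both groups were newborn (0.5 days) with a mixed C57B6 and 129Sv background, and all cells spent a night in DMEM with serum before RNA was taken. The labels call the arrays biological duplicates without naming the pups behind each, so the p-values rest on the spread between these samples, part of which may be technical.

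Bone morphogenetic proteins (BMPs) and growth and differentiation factors (GDFs) are secreted dimers of the TGF-β superfamily. They bind pairs of type I and type II serine/threonine kinase receptors, which phosphorylate Smad1, Smad5 and Smad9, and these enter the nucleus with Smad4. In cartilage the pathway is needed for chondrocytes to form, divide and mature, while secreted antagonists such as noggin hold it back, above all at future joints. Polycomb repressive complex 2 (PRC2), of which Eed is a core subunit, silences genes through the histone mark H3K27me3 and has many genes of signalling molecules among its targets.

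Eed had intensities of 1057 and 990.3 in Eed cKO cells, against 3597 and 3530 in Wt cells, which put the log2 difference at -1.77 with an SE of 0.07 (limma adjusted p = 7.03e-05). The sources used here do not say whether its probe set covers the deleted part of the gene. Intensities are linear and in arbitrary units, and array medians lay between 830 and 837. Arrays differed in sex markers within each group. Xist was at 4845 in Eed cKO 1 and 17196 in Eed cKO 2, and at 17820 in Wt 1 and 3634 in Wt 2. Ddx3y was at 4324 in Eed cKO 1 and 622.3 in Eed cKO 2, and at 191.6 in Wt 1 and 4664 in Wt 2. A fit with this split as a block was run too. The labelled cell type carried its markers, since Col2a1 had 36621 and 37497 in Eed cKO cells against 37529 and 37633 in Wt cells. The summed intensity of 8 chondrocyte markers ran from 202897 to 205883 in Eed cKO cells and from 205578 to 209388 in Wt cells, and 1 of them rose and 1 fell. That of 6 markers of hypertrophic chondrocytes, the mature cells of cartilage, ran from 60321 to 73030 in Eed cKO cells and from 43097 to 55177 in Wt cells, with 5 higher and 1 lower. That of 7 fibroblast and perichondrium markers ran from 81969 to 88870 in Eed cKO cells and from 73125 to 78540 in Wt cells, with 4 higher and 1 lower. The 3 tendon markers summed to 3040 and 3601 in Eed cKO cells and to 2602 and 2561 in Wt cells, with Mkx higher (log2 difference 0.62). The 7 muscle markers summed to 18656 and 19279 in Eed cKO cells and to 19740 and 20262 in Wt cells, with Myod1 and Des higher (0.45 and 0.73) and Ttn lower (-0.88). Of 7 macrophage and 4 red cell markers, 1 each fell. The part of these markers in the results was not tested, and in bulk RNA fewer cells of a type and less RNA per cell cannot be told apart.

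Of the 9 ligand genes, 5 were higher in Eed cKO cells, 2 were lower and 2 did not pass. Bmp4 rose to 3.24 times its Wt level and Bmp7 to 1.80 times, and Gdf10, Gdf5 and Bmp2 rose by smaller steps. Bmp5 and Bmp6 fell to 0.838 and 0.816 times their Wt levels. All 9 genes lay above the low-intensity filter. The limma test ran over 14944 genes on log2(intensity + 32), with a threshold of 0.05 on the adjusted p, a scale on which the change of dim genes is understated. Among all genes tested, 9.63% were called higher and 6.00% lower, against 5 and 2 of the 9 ligand genes. Because the 9 genes were chosen with earlier results of these data known, this comparison describes them and does not test the set. Both Eed cKO arrays lay above both Wt arrays for 5 ligand genes and below them for 3, while over all genes these shares were 31.1% and 29.1%. The median log2 difference was 0.31 over the 9 genes and 0.00 over all genes tested.

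**Figure D1:**
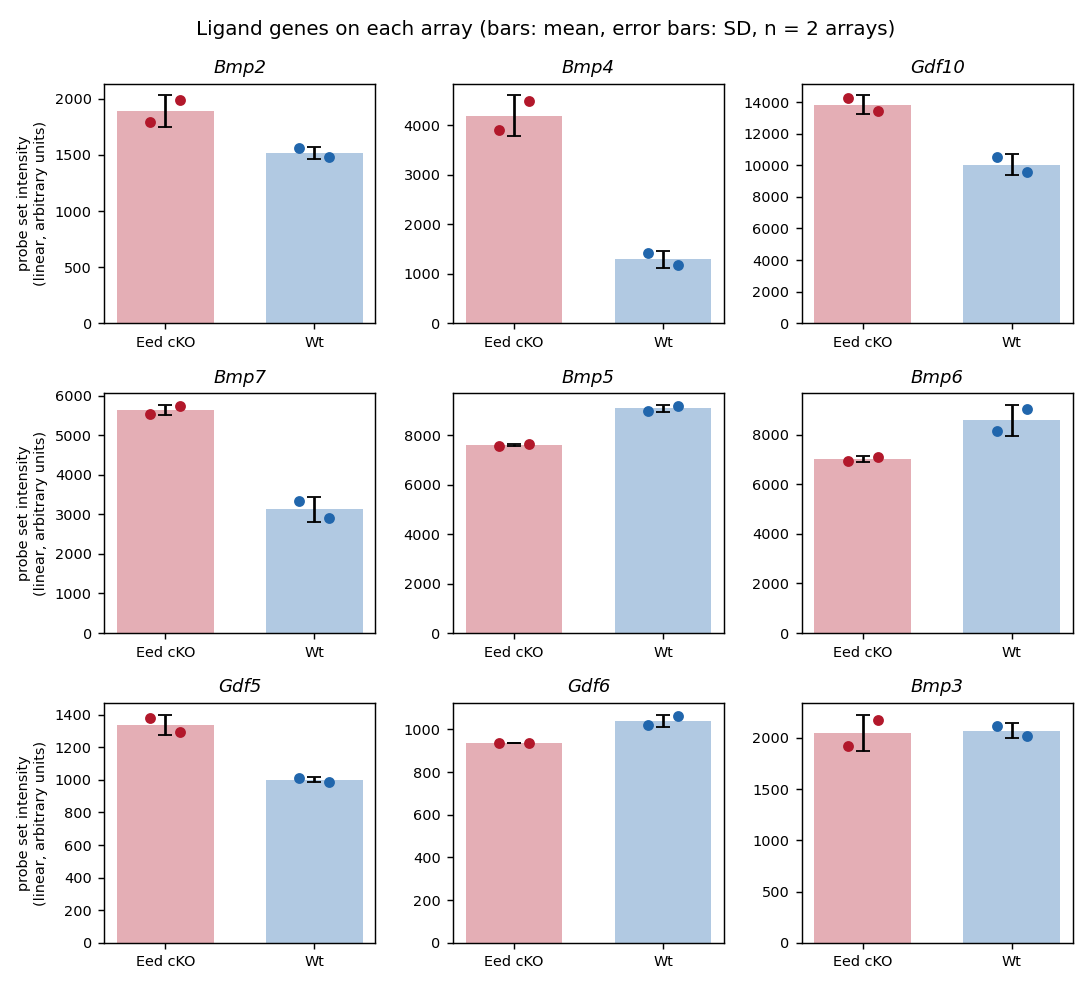
Linear probe set intensity (vertical axes, each from 0) of the 9 ligand genes in Eed cKO and Wt cells, with a point for each array, bars for the mean and error bars for the SD (n = 2 arrays). The points of the groups are apart in every panel except that of Bmp3, and the largest ratio between them is that of Bmp4, with 3896 and 4487 in Eed cKO cells against 1417 and 1172 in Wt cells.

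Bmp4 and Bmp2 are close relatives that act on the same receptors and drive cartilage and bone formation. Bmp4 had intensities of 3896 and 4487 on the Eed cKO arrays, against 1417 and 1172 on the Wt arrays. Its lowest Eed cKO value was 2.75 times its highest Wt value, so the groups were far apart. The log2 difference was 1.67 (SE 0.11, 95% interval 1.41 to 1.93, limma adjusted p = 0.000264), rank 27 from the top among the 14944 genes. Bmp2 had 1795 and 1993 on the Eed cKO arrays, against 1558 and 1483 on the Wt arrays. The groups did not overlap, but the closest pair of arrays differed only by a ratio of 1.15. The log2 difference of Bmp2 was 0.31 (SE 0.08, 95% interval 0.12 to 0.50, limma adjusted p = 0.0448). This call was lost without Wt 1 (adjusted p = 0.127), Wt 2 (0.247) or Eed cKO 2 (0.0914), and with the sex markers as a block (0.0562), whereas Bmp4 passed without any single array.

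Bmp5, Bmp6 and Bmp7 form a second subfamily, and its members did not move together. Bmp7, known from kidney and eye development and from its power to induce bone, had intensities of 5545 and 5728 on the Eed cKO arrays, against 3343 and 2907 on the Wt arrays. Each Eed cKO value was at least 1.66 times each Wt value. The log2 difference was 0.85 (SE 0.08, 95% interval 0.67 to 1.03, limma adjusted p = 0.000887). Bmp5, the gene of the short ear mouse mutant, whose skeleton is reduced, had 7580 and 7645 on the Eed cKO arrays, against 8982 and 9189 on the Wt arrays. The arrays of each group were close to each other and the groups did not overlap. The log2 difference of Bmp5 was -0.25 (SE 0.04, 95% interval -0.35 to -0.16, limma adjusted p = 0.00869).

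Bmp6, a ligand made by hypertrophic chondrocytes, had 6922 and 7091 on the Eed cKO arrays, against 8146 and 9025 on the Wt arrays. The Wt arrays differed from each other by more than the Eed cKO arrays did, and both were above them. The log2 difference was -0.29 (SE 0.06, 95% interval -0.43 to -0.15, limma adjusted p = 0.0177). Without Wt 2, the calls for Bmp5 (adjusted p = 0.0521) and Bmp6 (0.0924) were both lost, and that for Bmp6 also without the intensity trend of the variance (0.0549). Col10a1, the collagen of hypertrophic chondrocytes, also fell, with 17300 and 20201 on the Eed cKO arrays against 22039 and 26554 on the Wt arrays (log2 difference -0.37, limma adjusted p = 0.0449). The remaining 5 hypertrophic markers, namely Ihh, Mmp13, Spp1, Ibsp and Alpl, rose by 0.54 to 2.51 on the log2 scale. The call for Col10a1 was lost without Wt 2 (adjusted p = 0.0580) or Eed cKO 1 (0.102) and with the sex markers as a block (0.0779), and that for Spp1 without Eed cKO 2 (0.119) and with that block (0.0728). The log2 difference of Col10a1 moved to -0.24 without Wt 2, and that of Spp1, the smallest of these rises, to 0.30 without Wt 1.

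Gdf5 and Gdf6 are relatives that act in joint formation, and mice without functional Gdf5 have short digits and missing joints. Gdf5 had intensities of 1381 and 1295 on the Eed cKO arrays, against 1013 and 989.5 on the Wt arrays. The groups were apart by a ratio of at least 1.28. The log2 difference was 0.41 (SE 0.08, 95% interval 0.22 to 0.59, limma adjusted p = 0.0144), a call lost without Wt 1 (0.0631) or Wt 2 (0.0900). Gdf6 had 935.7 and 936.1 on the Eed cKO arrays, against 1021 and 1061 on the Wt arrays. Both Eed cKO values were lower, but the log2 difference of -0.15 (SE 0.08, 95% interval -0.33 to 0.029) did not pass (limma adjusted p = 0.237). The interval leaves room for a fall of 0.33 as well as for no change.

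Bmp3 and Gdf10 stand apart from the other ligands, since Bmp3 opposes the bone-forming BMPs and Gdf10, also called Bmp3b, is its closest relative. Gdf10 had 14272 and 13424 on the Eed cKO arrays, against 10508 and 9573 on the Wt arrays. The groups did not overlap. The log2 difference was 0.46 (SE 0.06, 95% interval 0.33 to 0.60, limma adjusted p = 0.00257). Bmp3 had 1923 and 2174 on the Eed cKO arrays, against 2119 and 2015 on the Wt arrays. It was the only ligand gene of the 9 whose groups overlapped, with a log2 difference of -0.015 (SE 0.08, 95% interval -0.21 to 0.18, limma adjusted p = 0.921).

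**Figure D2:**
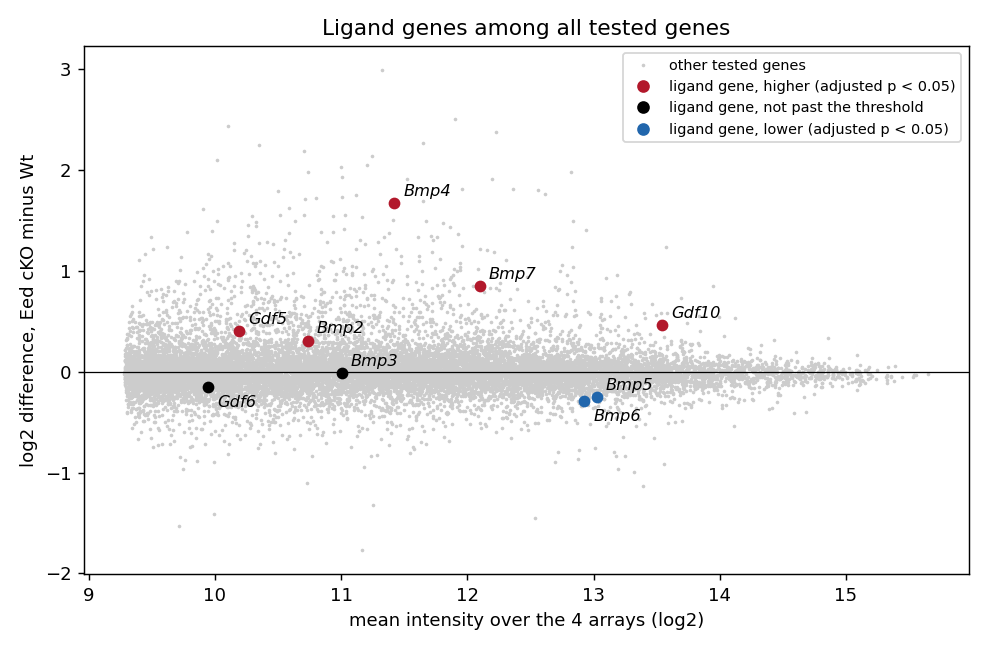
Log2 difference of Eed cKO minus Wt (vertical axis) against the log2 of the mean intensity (horizontal axis) for the 14944 genes tested, in grey, with the 9 ligand genes in colour by their call. Bmp4 at 1.67 and Bmp7 at 0.85 lie far above the bulk of the genes, whereas Bmp5 and Bmp6 lie at its lower edge.

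Leaving out each array in turn changed no sign other than that of Bmp3. The log2 difference of Bmp4 then ran from 1.54 to 1.81, that of Bmp7 from 0.75 to 0.95 and that of Gdf10 from 0.40 to 0.53, and these 3 genes passed each time. With 1 array left in a group, that array is taken to vary like the other group. The variance is also estimated anew in each such fit, so passing there is not a stricter test than with all 4.

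**Figure D3:**
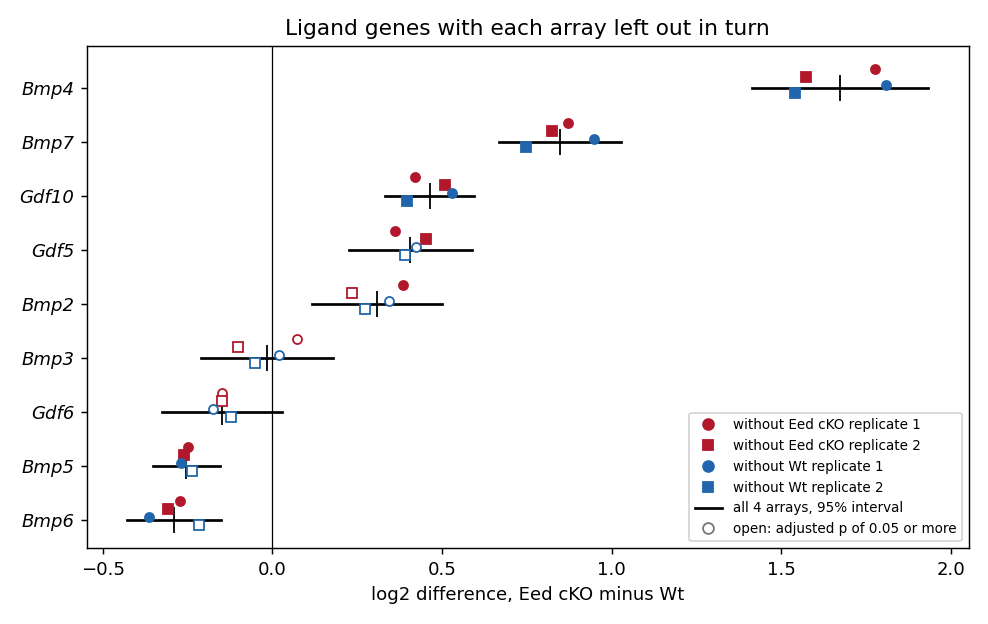
Log2 difference of Eed cKO minus Wt (horizontal axis) of the 9 ligand genes (vertical axis, sorted), from all 4 arrays with the 95% interval (black) and with each array left out (symbols, open where the adjusted p was 0.05 or more). Bmp4, Bmp7 and Gdf10 have filled symbols throughout, while both symbols without a Wt array are open for Gdf5.

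The promoter table of RefSeq (GRCm38.p6) held 300-base windows, from 250 bases before the transcription start to 50 after it, for 4 of the ligand genes, with Bmp2, Bmp3, Bmp7, Gdf5 and Gdf6 not among them. They are shown because CG dinucleotides at promoters are a feature of the genes on which PRC2 acts, and because 2 of these ligand genes rose and 2 fell. The windows lie at chr14:46390620-46390919 on the minus strand (Bmp4), chr14:33923337-33923636 on the plus strand (Gdf10), chr9:75775115-75775414 on the plus strand (Bmp5) and chr13:38345466-38345765 on the plus strand (Bmp6). Each is printed 5′ to 3′ along its gene, with every CG in capitals.
Bmp4: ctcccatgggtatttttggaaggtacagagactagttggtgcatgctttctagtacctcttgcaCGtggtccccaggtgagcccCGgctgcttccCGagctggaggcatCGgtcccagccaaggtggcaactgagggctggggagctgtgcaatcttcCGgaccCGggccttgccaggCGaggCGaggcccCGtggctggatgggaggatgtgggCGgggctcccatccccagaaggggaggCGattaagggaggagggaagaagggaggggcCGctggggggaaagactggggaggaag
Gdf10: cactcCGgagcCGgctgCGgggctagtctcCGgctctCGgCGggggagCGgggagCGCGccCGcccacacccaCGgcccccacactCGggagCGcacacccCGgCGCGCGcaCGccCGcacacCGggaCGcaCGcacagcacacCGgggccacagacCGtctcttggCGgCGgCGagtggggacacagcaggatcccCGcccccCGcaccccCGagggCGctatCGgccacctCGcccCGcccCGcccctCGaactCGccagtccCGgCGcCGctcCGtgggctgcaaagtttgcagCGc
Bmp5: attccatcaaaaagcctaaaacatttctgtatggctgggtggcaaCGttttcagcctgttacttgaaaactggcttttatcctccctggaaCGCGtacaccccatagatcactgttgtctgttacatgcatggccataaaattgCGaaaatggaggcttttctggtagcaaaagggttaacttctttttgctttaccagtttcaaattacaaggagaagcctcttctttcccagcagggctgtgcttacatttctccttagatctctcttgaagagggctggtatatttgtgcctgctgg
Bmp6: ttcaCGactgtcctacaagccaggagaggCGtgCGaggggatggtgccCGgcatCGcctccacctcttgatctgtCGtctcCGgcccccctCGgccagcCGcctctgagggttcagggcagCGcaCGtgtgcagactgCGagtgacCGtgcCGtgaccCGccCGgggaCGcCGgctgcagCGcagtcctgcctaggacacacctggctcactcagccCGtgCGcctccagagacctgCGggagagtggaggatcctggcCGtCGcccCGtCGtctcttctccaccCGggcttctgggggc
Among 32851 windows of the table the median was 7 CG, with quartiles of 3 and 20. Of the genes that rose, Gdf10 had 42 CG, more than 97.0% of all windows, and Bmp4 had 12, more than 60.4%. Of those that fell, Bmp6 had 27, more than 84.5%, and Bmp5 had 4, more than 31.4%. The number of CG did not sort these 4 genes by direction. On either strand, TATAAA (held by 13.6% of all windows) and CTTTGA (16.0%), the core that Lef1 and its relatives bind, were in none of the 4, and GGCGCC (11.9%), a GC-rich Smad motif, was in that of Gdf10 alone. Only GGCGCC holds a CG itself, none of the 3 motifs contains another, and a match describes the letters of the window only.

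The genes on either side of each ligand gene were read as well. In RefSeq gene order, the nearest tested protein-coding gene on either side of each ligand gene gave 18 neighbours, a set chosen after the ligand genes' values were seen. None was called higher, 1 was lower and 17 did not pass, where 9.63% and 6.00% of all genes were called higher and lower, with log2 differences from -0.39 to 0.27 and a median of -0.026. At an unadjusted limma p under 0.05 there were 0 higher and 1 lower, and the methods' t-test gave 2 neighbours an unadjusted p under 0.05. Beside Bmp4, with its difference of 1.67, stood Cdkn3 at 0.27 (SE 0.13, limma adjusted p = 0.204) and Ddhd1 at 0.098 (SE 0.06, 0.323). Beside Bmp7, at 0.85, stood Rae1 at -0.031 (SE 0.05, 0.698) and Tfap2c at -0.045 (SE 0.10, 0.810). The neighbour that fell was Snrnp48, which encodes a protein of the minor spliceosome and lies next to Bmp6, with a log2 difference of -0.39 (SE 0.07, adjusted p = 0.0129). It did not pass without Wt 1 (0.0824) or Wt 2 (0.0865).

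**Figure D4:**
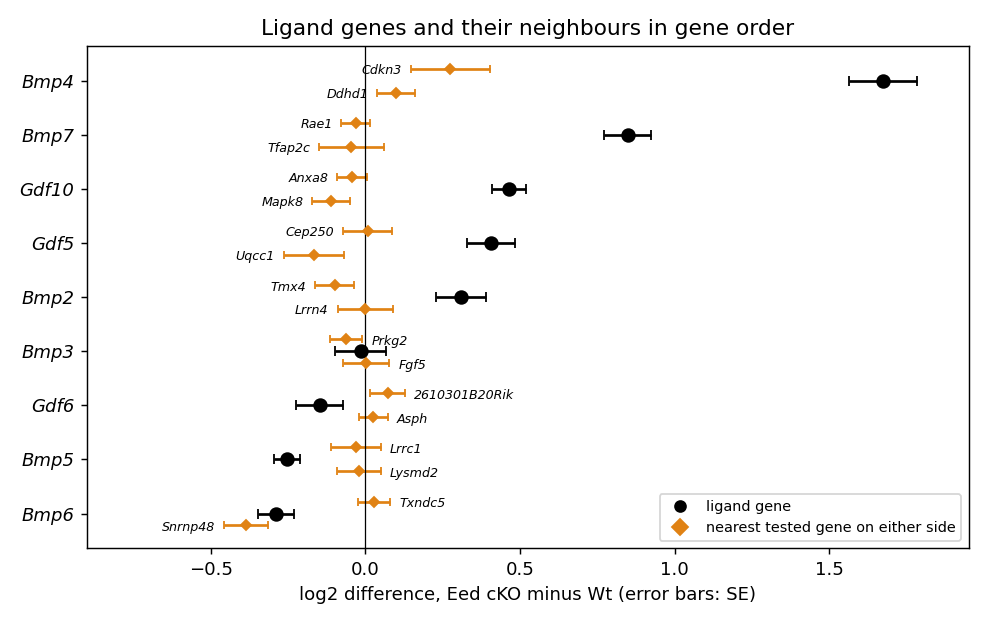
Log2 difference of Eed cKO minus Wt (horizontal axis, error bars are the SE) of the 9 ligand genes (black) and of the nearest tested gene on either side (orange diamonds, named). The neighbours lie between -0.39 and 0.27, while Bmp4 and Bmp7 lie at 1.67 and 0.85.

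The rest of the BMP pathway was listed by role. Of 67 further genes, 58 were tested, of which 10 were higher, 3 were lower and 45 did not pass, with a median log2 difference of 0.068, beside the 9.63% and 6.00% of all genes called higher and lower. Of 6 further ligand genes tested, Bmp8a rose, with 1128 and 1164 on the Eed cKO arrays against 867.4 and 822.9 on the Wt arrays (log2 difference 0.43, limma adjusted p = 0.0126, but 0.0903 without Wt 2), and 5 did not pass. Another 6 ligand genes lay under the filter, with intensities between 187 and 668. Of 7 proteases that cut ligands or their antagonists, Bmp1 rose by 0.20 (adjusted p = 0.0254, lost without Wt 1, at 0.167, or Wt 2, at 0.0632). Despite its name it is no ligand but a metalloprotease that cleaves procollagens and chordin. Furin and Pcsk6, which cleave ligand precursors and were chosen after their values were seen, had log2 differences of -0.068 (0.266) and -0.18 (0.0911).

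Of 10 receptor and co-receptor genes tested, only Eng, a co-receptor of the TGF-β superfamily known from endothelial cells, passed, with 9149 and 8079 on the Eed cKO arrays against 5047 and 4755 on the Wt arrays (log2 difference 0.81, limma adjusted p = 0.000760). The 5 endothelial markers summed to 5298 and 5619 in Eed cKO cells and to 5147 and 5252 in Wt cells, with 1 higher and 1 lower, and their part in the change of Eng was not tested. At an unadjusted limma p under 0.05, the receptor list held 2 genes higher, Eng and Acvr2a, and 1 lower, Bmpr2. The methods' t-test gave 3 of its genes an unadjusted p under 0.05. Acvr2a at 0.22 (limma adjusted p = 0.0734) and Bmpr2 at -0.11 (0.0651) were named after their values were seen. None of 8 Smad and ubiquitin ligase genes passed in limma, with log2 differences from -0.14 to 0.32. At an unadjusted limma p under 0.05 there was 1 of the 8, Smad6, and the methods' t-test gave 1 other gene, Smurf2. That with the largest difference was Smad6, an inhibitory Smad that BMP signals induce, at 0.32 (adjusted p = 0.0644), chosen after its value was seen.

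Among 14 secreted antagonists and binding proteins tested, 3 rose and 11 did not pass. Fst, which encodes the activin and BMP binding protein follistatin, had 9122 and 9629 on the Eed cKO arrays, against 2468 and 2883 on the Wt arrays (log2 difference 1.80, limma adjusted p = 7.78e-05). Bmper, a secreted protein that binds BMPs, had 2485 and 2669 on the Eed cKO arrays, against 1220 and 1497 on the Wt arrays (0.91, adjusted p = 0.00226). Grem1, which binds BMP2 and BMP4, had 10416 and 8872 on the Eed cKO arrays, against 6992 and 7597 on the Wt arrays (0.40, adjusted p = 0.0182, but 0.0551 without the intensity trend). None of these groups overlapped. Nog, which encodes noggin and was chosen after its values were seen, had 2495 and 2377 on the Eed cKO arrays, against 2723 and 3136 on the Wt arrays, and did not pass (-0.26, adjusted p = 0.0826).

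Target genes of the pathway went both ways. Of the pseudoreceptor gene Bambi and 12 targets, 4 rose, 3 fell and 6 did not pass. The homeobox gene Msx2 rose by 0.84 (limma adjusted p = 0.00125), the homeobox gene Dlx5 by 0.75 (0.00524) and Sp7, a transcription factor of osteoblasts, by 1.05 (0.00692). Msx2 had 1062 and 985.3 on the Eed cKO arrays, against 539.9 and 572.4 on the Wt arrays. Both Wt values of Msx2 lay under the intensity of the filter, which was applied to the mean over all arrays. Msx2 was therefore tested only because of its higher Eed cKO values. Id4, whose product holds back basic helix-loop-helix factors, fell by 0.48 (0.00637). Runx2, Id2 and Hey1 were the remaining targets that passed, named after their values were seen, at 0.59 (0.00845), -0.14 (0.0290) and -0.20 (0.0391). Id2 did not pass when Wt 1 (0.108), Wt 2 (0.151) or Eed cKO 2 (0.0650) was left out. Hey1 did not when Wt 1 (0.118), Wt 2 (0.268) or Eed cKO 1 (0.0644) was left out, nor with the sex markers as a block (0.0607). Id1, a common marker of BMP signalling, had 13675 and 13509 on the Eed cKO arrays, against 11929 and 12703 on the Wt arrays, and did not pass (0.14, 0.0647), and it too was chosen after its values were seen. The 4 osteoblast markers on the arrays summed to 12905 and 15929 in Eed cKO cells and to 8704 and 9704 in Wt cells. Most of each sum came from Sp7 and Runx2, which are also targets here. Dmp1 had 773 and 691 on the Eed cKO arrays, against 710 and 636 on the Wt arrays. It did not pass (log2 difference 0.12, limma adjusted p = 0.469). Phex, under the filter, had 545 and 583 in Eed cKO cells against 532 and 544 in Wt cells. The part of these 4 markers in the changes of the targets was not tested.

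**Figure D5:**
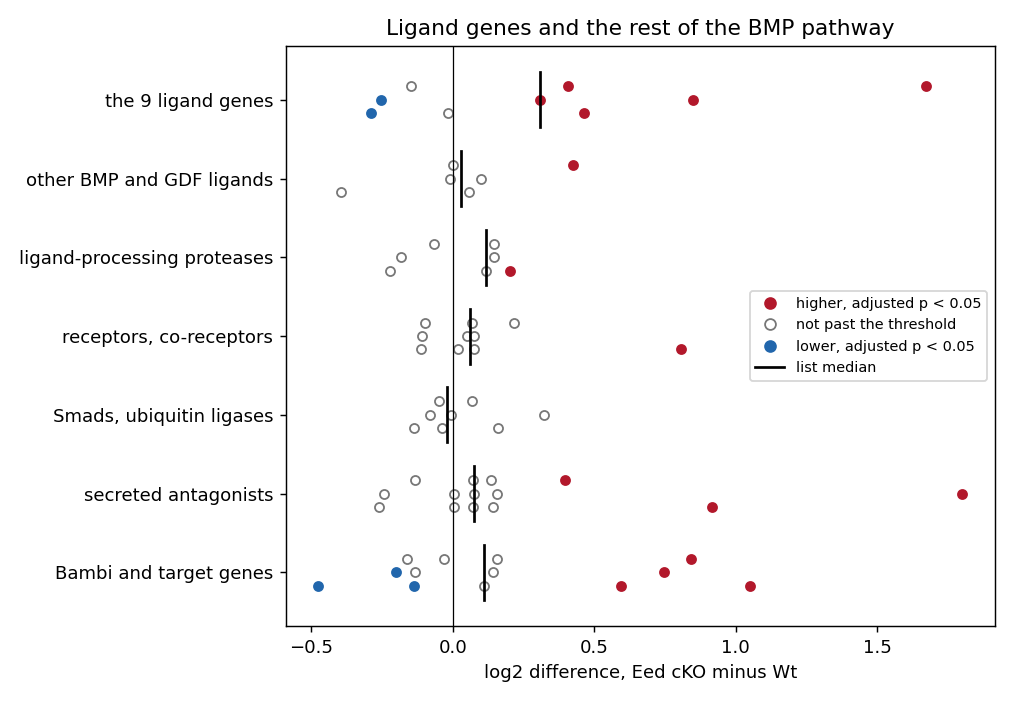
Log2 difference of Eed cKO minus Wt (horizontal axis) of each tested gene of the 9 ligand genes and of 6 lists of the BMP pathway (vertical axis), filled where the adjusted p was under 0.05, with a line at each list's median. The points farthest to the right are Fst at 1.80 and Bmp4 at 1.67, and the Smad list holds open points only.

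The genes whose values over the 4 arrays were most like those of Bmp4 were Stox2, Oas1g and S1pr3, which encodes a sphingosine phosphate receptor, with root mean square distances of 0.088, 0.10 and 0.10 between centred log2 values. Their log2 differences were 1.55, 1.62 and 1.73. Those most like Bmp5 were Acsl1, a fatty acid activating enzyme, BC032203 and Rad51ap1, a DNA repair protein, at distances of 0.0049, 0.0069 and 0.0078 and log2 differences of -0.25, -0.27 and -0.25. With 4 arrays such likeness follows mainly from the difference between the groups.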

How the data were processed

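RNA of rib chondrocytes was measured on 4 arrays, 2 of Eed cKO and 2 of Wt cells. The authors deposited linear intensities for 35512 probe sets, which a sheet name of the study calls dChip signals, and a deposited table also holds the authors' own Eed cKO over Wt ratios (1 of the group means, the others by replicate number), none of which was used. The sources used here name no background correction, normalization or build. Precision is limited by the number of arrays, which have no read depth.

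Names were updated through RefSeq (GRCm38.p6), by accession for 18664 probe sets, by symbol for 2420 and by an older name for 1957, while 2134 kept the file's name and 10337 had none. The brightest probe set per gene was used. Genes whose mean log2 value lay under the 33rd percentile (intensity 623) were left out. Group was the single term in limma 3.58.1 (R 4.3.3, intensity trend, two-sided, Benjamini-Hochberg over 14944 genes). The fit was also run on simulated data drawn from its own variance model, which cannot show whether that model holds for these arrays. Residual degrees of freedom were 2, and 6.99 with the shared variance estimate. The members and lists were chosen with earlier results of these data known. Named genes were the 9 ligands, Eed, the changed genes of each list (the 4 with the smallest p where over 5 changed) and the 3 nearest in pattern. Alternatives changed the pseudocount, filter, normalization, test, probe set rule, block and arrays.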

Additional observations from a re-analysis of the deposited data

How the results depend on the processing

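The calls for Bmp4, Bmp7 and Gdf10 held under every alternative except the methods' t-test after Benjamini-Hochberg, and Bmp3 was the only ligand gene that changed sign, without Wt 1 or Eed cKO 1. A smaller and a larger pseudocount and the mean over all probe sets changed no ligand call. The call for Bmp2 (log2 difference 0.31) was lost without the filter (adjusted p = 0.0525), with quantile normalization (0.25, 0.0903), without the intensity trend (0.0523) and with the sex markers as a block (0.0562), an alternative chosen after seeing the data. Leaving out genes under the median removed Gdf5 and Gdf6 from the test and changed no other ligand call.

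Without the trend 1 ligand gene, 575 of all genes and 1 gene of the further pathway lists were lower, and Bmp6 (-0.29) did not pass (0.0549). The methods' t-test on the same log2 values left 0 ligand genes higher and 0 lower after Benjamini-Hochberg, with 2 and 2 of all genes and 0 and 0 of the pathway lists. Bmp2 (0.31), Bmp4 (1.67), Bmp5 (-0.25), Bmp6 (-0.29), Bmp7 (0.85), Gdf5 (0.41), Gdf10 (0.46) and Eed (-1.77) then had adjusted p-values from 0.147 to 0.275. Unadjusted, it gave Bmp2 0.0640 and Bmp6 0.0616, and Gdf6 (-0.15) passed at 0.0305. By the study's fold rule, a change of over 25%, no ligand gene was lower (0), 4 were higher, and 578 of all genes were lower.

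With single arrays left out, 3 to 5 ligand genes were higher (3 without Wt 1 or Wt 2) and 0 to 2 lower (0 without Wt 2), against 931 to 1580 and 395 to 1203 of all genes (931 and 515 without Wt 1, 395 lower without Wt 2), and 9 to 13 and 1 to 6 of the pathway lists (1 lower without Wt 2, 6 without Eed cKO 1). The log2 difference of Bmp2 ran from 0.23 to 0.38, of Bmp3 from -0.10 to 0.072 (0.021 without Wt 1, 0.072 without Eed cKO 1), of Bmp5 from -0.27 to -0.24, of Bmp6 from -0.36 to -0.22 and of Gdf5 from 0.36 to 0.45. The cause of these changes was not tested. The paper compared control and cKO littermates, but the labels do not say whether arrays of the same replicate number share a litter. The correlation of their deviations was -0.01, which cannot settle this. With a replicate block 5 ligand genes were higher and 2 lower, with 1539 and 991 of all genes.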
